A study of Mus musculus with 12 samples.

Results

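The Frizzled receptors and their coreceptors were followed through the hand and foot plates (autopods) of mouse embryos of stage E12.5. The group held 10 genes, chosen by name: 7 Frizzled genes (Fzd1, Fzd2, Fzd3, Fzd4, Fzd6, Fzd7 and Fzd8), the coreceptors Lrp5 and Lrp6, and the receptor tyrosine kinase Ror2. Every probe set annotated to exactly 1 of these genes was taken, which gave 19 of the 22690 probe sets of the Affymetrix MOE430 A design and 7 of the 22575 of the B design. All 10 genes were on the A design, and Fzd1, Fzd3, Fzd4, Fzd6, Fzd8 and Ror2 also on the B design. There were 3 hindlimb samples (numbered 12, 14 and 26) and 3 forelimb samples (11, 13 and 25), each hybridised to both designs, 12 arrays in all. All embryos were labelled wild type, with no treatment named; for strain, sex and any pooling of embryos no statement was found. The labels name no separate animals, and a p-value therefore speaks of the spread among these 6 samples, part of which may be technical.

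Wnt proteins are secreted signals that bind Frizzled proteins, multi-pass receptors of the cell surface, through a cysteine-rich outer domain. When Lrp5 or Lrp6 joins the complex, beta-catenin is stabilised and enters the nucleus, and when Ror2 binds Wnt5a, signalling runs without beta-catenin and steers cell polarity and movement. In the limb bud, Wnt signals from the ectoderm keep the mesenchyme below it proliferating and hold back cartilage, and Wnt5a with Ror2 drives the lengthening of the digits.

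Values are MAS5.0 signals, which summarise the probes of a probe set on a linear scale, with each array scaled to a trimmed mean of 500. Signals of different probe sets, and of the A and B designs, are not comparable with each other. A difference is the hindlimb mean minus the forelimb mean of log2(signal + 32), and the added 32 makes changes of dim probe sets look smaller. They come from limma fits over all tested probe sets of a design, with n = 3 samples per limb and Benjamini-Hochberg adjusted p-values, and a threshold of 0.05. A probe set was tested where its scaled signal reached 100 on at least 3 of the 6 arrays. Of the 19 receptor probe sets on A arrays 14 were tested, and of the 7 on B arrays all were. The scale factor was 1.43 on A arrays and 7.14 on B arrays, so the filter admits lower deposited signals on B arrays. The known limb factors parted the samples as labelled: Tbx5 was lower in hindlimb, and Pitx1 and Tbx4 were higher, without overlap on any of their 6 probe sets. The threshold was passed on 5 of these, and Tbx4 on A arrays missed it (1.33, adjusted p = 0.051). For forelimb 11 on A arrays the limb rests on the letter in its title alone. All 6 mesenchyme markers (Prrx1, Prrx2, Msx1, Twist1, Hoxa13 and Hoxd13) were above the filter on A arrays.

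None of the receptor probe sets differed between the limbs at the adjusted threshold. The count was 0 of 14 on A arrays, where 0.0326% of all 15338 tested probe sets passed, and 0 of 7 on B arrays, where 0.0117% of 17145 passed. The lowest values relative to forelimb belonged to Fzd8 and Fzd4, both of which had differences below 0 on each design. At an unadjusted p under 0.05 there were 3 of 14 receptor probe sets on A arrays (Fzd8, Fzd2 and Fzd4; 5.54% of all tested) and 2 of 7 on B arrays (Fzd8 and Fzd4; again 5.54% of all tested), all lower in hindlimb. These counts fell when certain samples were left out. The A array gave 1 without forelimb 13, 2 without hindlimb 26, and 3 without any of the others. These 3 were not always the same probe sets. Without hindlimb 14 another Fzd2 probe set (-0.34) stood in place of Fzd4, and without forelimb 11 Ror2 (-0.43) did. The B array gave 1 without hindlimb 12, hindlimb 26 or forelimb 13, and 0 without forelimb 11. Without forelimb 25 it gave 2, again Fzd8 and Fzd4. Without hindlimb 14 it also gave 2, but Ror2, higher in hindlimb (0.54), stood in place of Fzd4. All 3 hindlimb samples lay below all 3 forelimb samples on 2 of the 14 A probe sets (6.1% of all tested) and on 1 of the 7 B probe sets (6.14%), while the hindlimb samples lay wholly above on 0 of either (4.94% and 4.81% of all tested). Since the members are few, share samples and are partly probe sets of the same gene, these shares describe the group and set it apart from nothing.

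The spread between samples of a limb was as large as most of the limb differences. On A arrays the pooled within-limb standard deviation (SD) of the receptor probe sets ranged from 0.029 to 0.43 on the log2 scale (median 0.16), and the limb difference was smaller than this SD on 11 of 14. On B arrays the SD ranged from 0.082 to 0.42 (median 0.25), and 4 of 7 differences were smaller. The same share over all tested probe sets was not computed, so these counts describe the receptors without setting them apart. Of the 14 differences on A arrays 12 were negative, with a median of -0.13, where all tested probe sets had a median of -0.009 and 52.2% below 0. On B arrays 4 of 7 were negative, with a median of -0.04, against -0.01 and 52.2% over all tested.

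**Figure D1:**
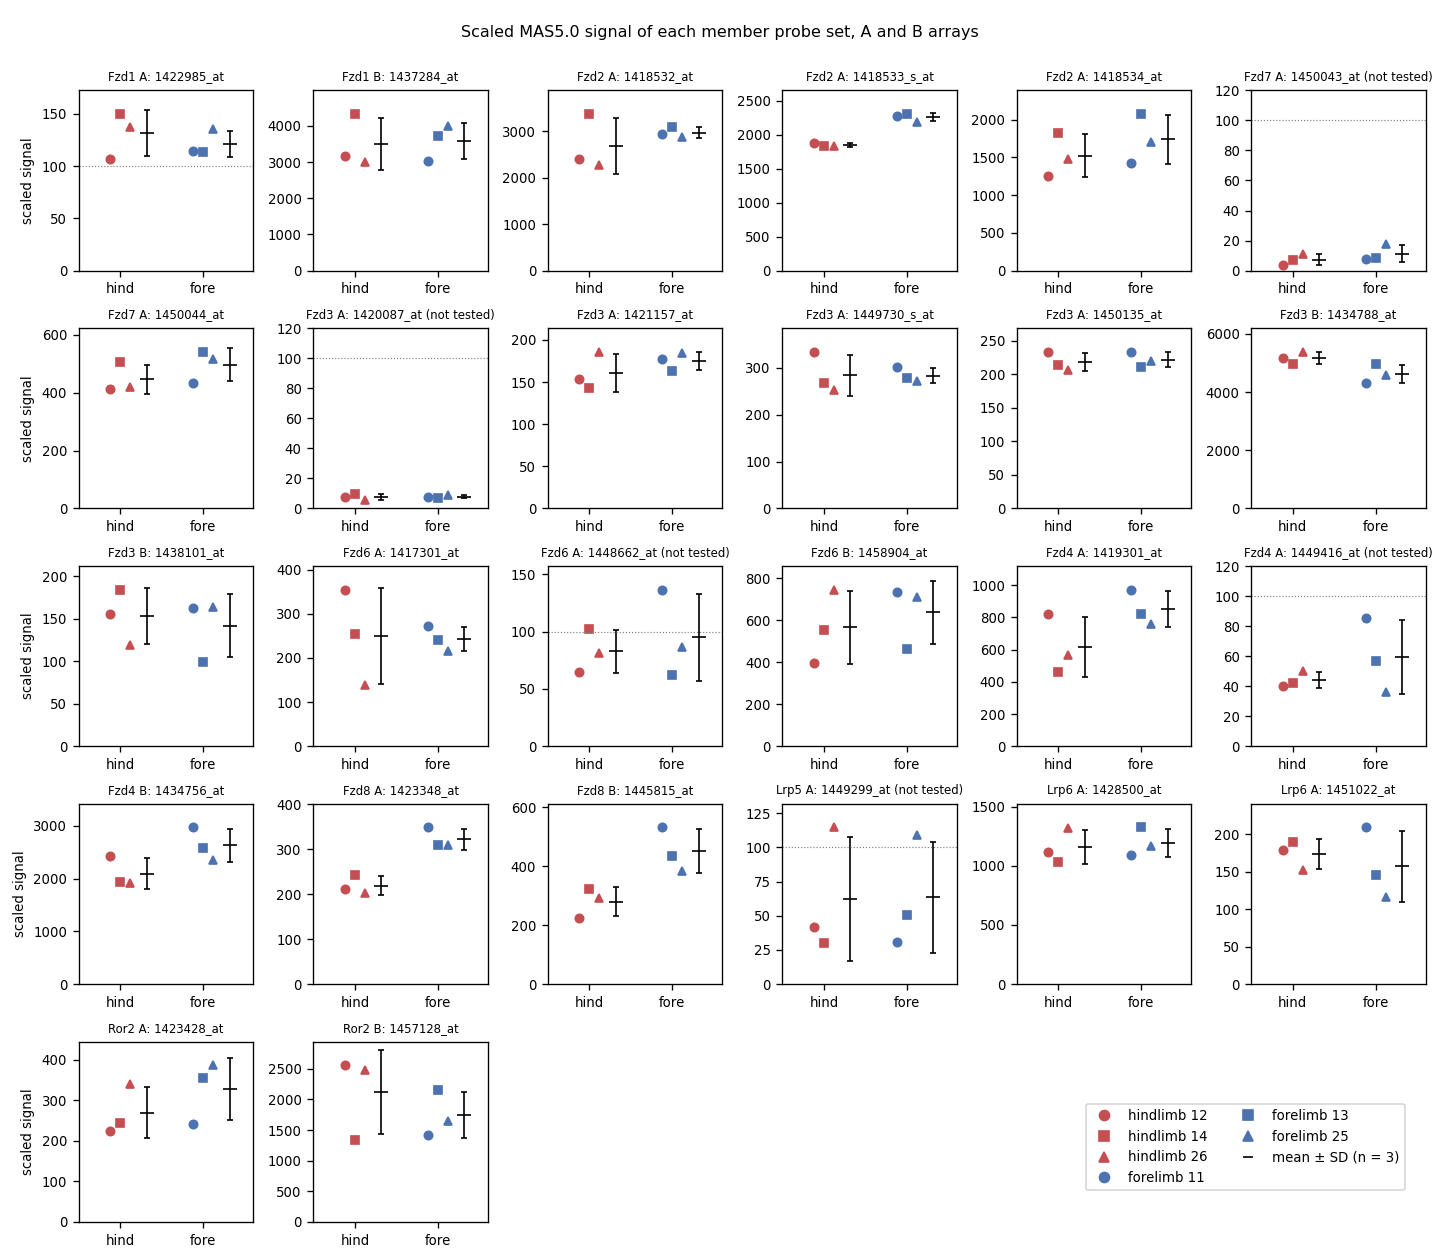
Scaled MAS5.0 signal (linear axis from 0) of all 26 receptor probe sets, 1 panel each, with hindlimb samples in red left of forelimb samples in blue; bars give the mean and SD (n = 3), and the dotted line marks the filter of 100 in panels of dim probe sets. Only the panels of Fzd8 on both designs and of 1 Fzd2 probe set show hindlimb samples wholly below forelimb samples.

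Fzd8, which with Fzd5 forms a subgroup of Frizzled proteins known to signal through beta-catenin, had the lowest difference of the group on each design. On A arrays its scaled signal was 212, 242 and 201 in hindlimb 12, 14 and 26, against 348, 308 and 309 in forelimb 11, 13 and 25. On B arrays another Fzd8 probe set had signals of 224, 323 and 292 in hindlimb 12, 14 and 26, against 531, 435 and 385 in forelimb 11, 13 and 25. Every hindlimb sample was thus below every forelimb sample on both designs, with the highest signals each time in forelimb 11. The mean signal was 218 ± 21.0 in hindlimb and 322 ± 22.9 in forelimb on A arrays, and 280 ± 50.4 in hindlimb and 450.4 ± 74.4 in forelimb on B arrays (SD, n = 3 each). The difference was -0.50 ± 0.14 on A arrays (SE, 95% interval -0.81 to -0.19, adjusted p = 0.599), which is 0.707-fold, and -0.63 ± 0.22 on B arrays (interval -1.12 to -0.15, adjusted p = 0.887), which is 0.645-fold. Neither passed over all probe sets. Both designs were hybridised with the same numbered samples, so the B value is a second measurement of these samples and not of further ones. In bulk samples such as these, fewer cells of a type and less RNA per cell cannot be told apart.

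The summed signal of surface ectoderm markers lay in the same order as Fzd8 on A arrays. Over 10 probe sets it was 3636 to 4202 in hindlimb and 4614 to 6097 in forelimb. Of the 8 tested marker probe sets 5 had negative differences (52.2% of all tested). All hindlimb samples lay below all forelimb samples on 4 of the 8 (6.1% of all tested), and above them on 1 (4.94%). At an unadjusted p under 0.05 there were 4 of the 8 (5.54% of all tested), all lower. Among them were the basal keratins Krt15 (-1.38, adjusted p = 0.059) and Krt14 (-0.83 and -0.66, with 0.08 on its remaining probe set). Epcam had -0.01, Cdh1 had 0.01 and Trp63 had 0.09 on A arrays. The B array held 2 ectoderm probe sets, of Epcam (-0.03) and Trp63 (-0.42), and their summed signal overlapped, at 674 to 1268 in hindlimb and 794 to 1403 in forelimb. None of the 6 ectoderm genes was at 0 in any sample. Probe sets near the floor also read above 0, so that alone shows no expression. The log2 ratio of 3' to 5' Gapdh signal, a sign of RNA quality, was -0.299 to -0.263 in hindlimb and -0.239 to -0.078 in forelimb on A arrays. On B arrays these ratios overlapped, at -0.173 to -0.113 in hindlimb and -0.253 to -0.073 in forelimb. The same ratio of beta-actin overlapped on both designs, at 0.222 to 0.270 in hindlimb and 0.118 to 0.261 in forelimb on A arrays, and at 0.208 to 0.320 in hindlimb and 0.238 to 0.313 in forelimb on B arrays. The part of these measures in the Fzd8 values, and in those of Fzd4 that follow, was not tested. Of other cell types on A arrays, cartilage had 2 of 7 and muscle 1 of 4 tested probe sets lower at an unadjusted p under 0.05, and blood had 2 of 7 higher. Of the 4 tested nerve probe sets 1 was higher (Nefm, 0.72) and 1 lower (Ngfr, -0.72) at that level.

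Fzd4 is known as the receptor of norrin as well as of Wnt proteins and is needed for the growth of retinal vessels in the mouse. Its brighter A probe set had signals of 819, 462 and 567 in hindlimb 12, 14 and 26, against 973, 822 and 760 in forelimb 11, 13 and 25. On B arrays Fzd4 had 2424, 1933 and 1910 in hindlimb 12, 14 and 26, against 2967, 2570 and 2350 in forelimb 11, 13 and 25. On both, hindlimb 14 and 26 lay below all forelimb samples and hindlimb 12 lay above forelimb 25, so the limbs overlapped. The difference was -0.48 ± 0.19 on A arrays (SE, interval -0.90 to -0.05, limma adjusted p = 0.823) and -0.33 ± 0.14 on B arrays (interval -0.64 to -0.02, adjusted p = 0.894). With hindlimb 12 left out the A value became -0.69 (adjusted p = 0.306), and with hindlimb 14 left out it became -0.30 (adjusted p = 0.858). Another Fzd4 probe set, on A arrays, stayed below the filter, with 40.1 to 50.4 in hindlimb and 36.0 to 85.5 in forelimb. The endothelial marker list was of interest since Fzd4 acts in vessels. It had 0 of 5 tested probe sets at an unadjusted p under 0.05 (5.54% of all tested). Its median difference was -0.07, and its summed signal overlapped, at 1333 to 1634 in hindlimb and 1525 to 1566 in forelimb.

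The promoter table from RefSeq (build GRCm38.p6) matched 4 of the 10 genes: Fzd1, Fzd4, Fzd7 and Ror2. The promoters of Fzd4 and Fzd1 are shown because, of these 4 genes, Fzd4 had the lowest difference on each design that measured them and Fzd1 had differences near 0. Each run is the 250 bases before the annotated start, 5′ to 3′ on the gene's strand. The Fzd4 window is chr7:89404116-89404365 on the plus strand, and the Fzd1 window is chr5:4758217-4758466 on the minus strand. Capitals mark matches, on either strand, to GGGCGG (GC box), ATTGG (inverted CCAAT box), CTTTGNT (core of TCF/LEF sites), AGGTGTG (T-box site) and TAATCC (core bound by Pitx factors).
Fzd4: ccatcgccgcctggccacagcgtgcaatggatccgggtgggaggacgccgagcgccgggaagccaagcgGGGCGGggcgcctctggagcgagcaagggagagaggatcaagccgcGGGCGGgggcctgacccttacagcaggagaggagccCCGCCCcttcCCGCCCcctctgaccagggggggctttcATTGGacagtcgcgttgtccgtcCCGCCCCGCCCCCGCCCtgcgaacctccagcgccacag
Fzd1: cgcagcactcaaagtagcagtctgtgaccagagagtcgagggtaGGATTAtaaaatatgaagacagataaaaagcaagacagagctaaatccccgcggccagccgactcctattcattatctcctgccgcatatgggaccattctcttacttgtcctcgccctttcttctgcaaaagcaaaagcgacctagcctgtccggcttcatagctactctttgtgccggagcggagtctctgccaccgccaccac
The Fzd4 window held 7 GC boxes, some sharing a base with the next, and 1 inverted CCAAT box, at a GC content of 72.8%. The Fzd1 window held 1 match to the Pitx core and none to the others, at a GC content of 51.2%, where the median over all windows was 52.4%. The Fzd7 window held 6 GC boxes, 2 CCAAT boxes and 1 TCF/LEF core, and that of Ror2 held 4 GC boxes. Their GC content was 65.2% for Fzd7 and 73.2% for Ror2. Matches of different motifs did not overlap in these windows. A GC box was present in 32.7% of all 32851 promoter windows listed, a CCAAT box in 33.8%, a TCF/LEF core in 16.0%, a T-box site in 5.1% and a Pitx core in 6.25%. A match of letters is no evidence of binding.

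Fzd1, Fzd2 and Fzd7 form a subgroup of closely related Frizzled proteins. Fzd2 had 3 probe sets on A arrays, all tested and all with differences below 0. The probe set 1418533_s_at, whose suffix marks probes that can match more than 1 transcript, had the tightest values of the whole group: 1877, 1831 and 1839.8 in hindlimb 12, 14 and 26, against 2269, 2307 and 2193 in forelimb 11, 13 and 25. The limbs did not overlap, and the difference was -0.28 ± 0.10 (SE, interval -0.51 to -0.06, adjusted p = 0.729), or 0.822-fold.

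The other Fzd2 probe sets did not separate the limbs. On 1418532_at the Fzd2 signal was 2395, 3371 and 2271 in hindlimb 12, 14 and 26, against 2939, 3098 and 2870.0 in forelimb 11, 13 and 25. Here hindlimb 14 was the highest of all 6 samples, and the difference was -0.17 ± 0.14 (SE, interval -0.49 to 0.15, adjusted p = 0.969). It became -0.34 (adjusted p = 0.629) without hindlimb 14, -0.10 without hindlimb 12 and -0.06 without hindlimb 26. On 1418534_at Fzd2 had 1255, 1826 and 1482 in hindlimb 12, 14 and 26, against 1430.1, 2075 and 1709 in forelimb 11, 13 and 25. Hindlimb 14 and 26 lay among the forelimb samples, and the difference was -0.19 ± 0.17 (SE, interval -0.56 to 0.18, adjusted p = 0.971). It became -0.33 without hindlimb 14, -0.32 without forelimb 11, and -0.06 without hindlimb 12 or without forelimb 13.

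Fzd7 was read by 1 tested probe set, on A arrays, with 413, 505 and 419 in hindlimb 12, 14 and 26, against 434, 541 and 515 in forelimb 11, 13 and 25. The limbs overlapped, with a difference of -0.15 ± 0.14 (SE, interval -0.46 to 0.17, adjusted p = 0.972). Its other probe set was near the floor of the array, with 17.6 in forelimb 25 as its highest signal, and was not tested.

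Fzd1 gave values near 0 on both designs. On A arrays the signals were 107, 150.0 and 138 in hindlimb 12, 14 and 26, against 114, 113 and 136 in forelimb 11, 13 and 25, just above the filter. On B arrays Fzd1 had 3177, 4334 and 2994 in hindlimb 12, 14 and 26, against 3017, 3715 and 3989 in forelimb 11, 13 and 25. Hindlimb 14 was the highest sample on both, and the limbs overlapped. The difference was 0.09 ± 0.18 on A arrays (SE, interval -0.31 to 0.49, adjusted p = 0.995) and -0.04 ± 0.16 on B arrays (interval -0.40 to 0.32, adjusted p = 0.985).

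**Figure D2:**
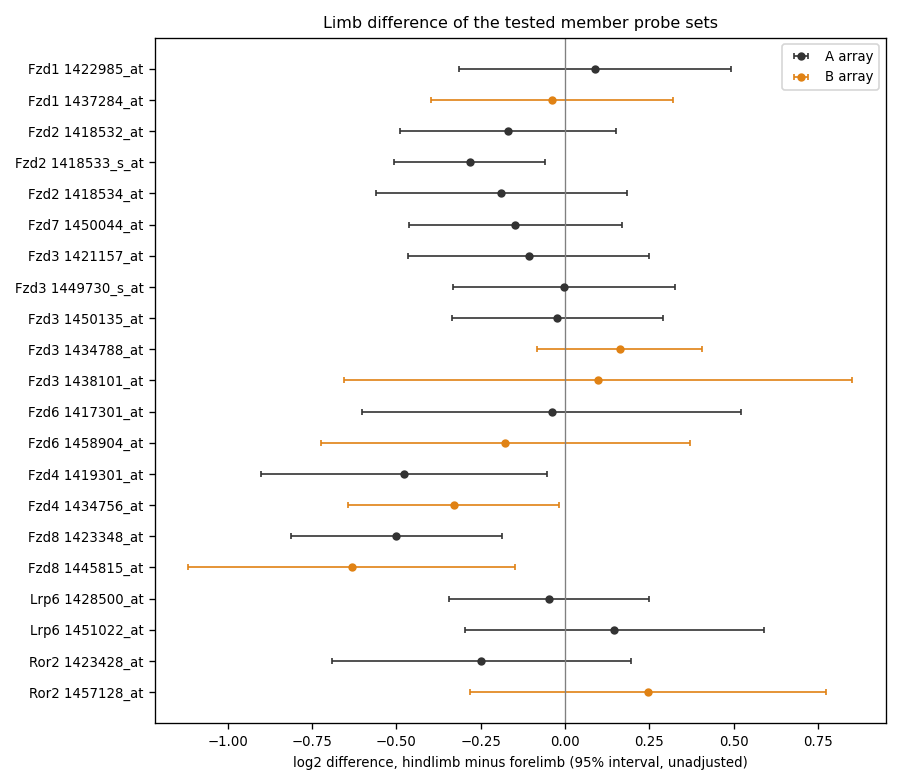
Limb difference (log2 hindlimb minus forelimb, horizontal axis) of the 21 tested receptor probe sets with unadjusted 95% intervals from limma, A array in black and B array in orange. The intervals of both Fzd8, both Fzd4 and 1 Fzd2 probe set lie below 0, and all others cross 0; no adjusted p was under 0.599.

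Fzd3 and Fzd6 form a further subgroup, known in the mouse for planar cell polarity, axon guidance and hair orientation. Fzd3 was covered by 6 probe sets, 5 of them tested. The brightest on its design, 1434788_at on B arrays, had signals of 5164, 4960.0 and 5388 in hindlimb 12, 14 and 26, against 4325, 4963 and 4576 in forelimb 11, 13 and 25. Hindlimb 14 and forelimb 13 were all but equal, and the difference was 0.16 ± 0.11 (SE, interval -0.08 to 0.41, adjusted p = 0.917).

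The other tested Fzd3 probe sets gave differences of -0.11, -0.003 and -0.02 on A arrays and 0.10 on B arrays (adjusted p = 0.982 to 0.999). Their signals ran from 143 to 334 in hindlimb and 163 to 301 in forelimb on A arrays, with overlap on each. The widest interval among them was that of the dim B probe set 1438101_at (-0.65 to 0.85), which leaves its direction unmeasured. The probe set 1420087_at, also named Fzd3, stayed at 5.4 to 9.7 in hindlimb and 7.1 to 8.9 in forelimb.

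Fzd6 varied more between samples than between limbs. On A arrays its signal was 355, 255 and 139 in hindlimb 12, 14 and 26, against 272, 241 and 216 in forelimb 11, 13 and 25. On B arrays Fzd6 had 398, 556 and 747 in hindlimb 12, 14 and 26, against 736, 465 and 713 in forelimb 11, 13 and 25. The hindlimb samples spanned the forelimb samples on A arrays, and their order was turned round on B arrays. The difference was -0.04 ± 0.25 on A arrays (SE, interval -0.60 to 0.52, adjusted p = 0.997) and -0.18 ± 0.25 on B arrays (interval -0.72 to 0.37, adjusted p = 0.953). Without hindlimb 26 the A value was 0.28. A second A probe set of Fzd6 had 64.7 to 102 in hindlimb and 62.1 to 137 in forelimb and did not pass the filter.

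Of the coreceptors, Lrp6 is known to be needed for limb outgrowth in the mouse. Its brighter A probe set had 1121, 1036 and 1321 in hindlimb 12, 14 and 26, against 1095, 1325 and 1168 in forelimb 11, 13 and 25. The samples of both limbs were interleaved, and the difference was -0.05 ± 0.13 (SE, interval -0.34 to 0.25, adjusted p = 0.995). This interval leaves room for a hindlimb level from 0.788-fold to 1.19-fold that of forelimb. The dimmer Lrp6 probe set had 179, 190 and 152 in hindlimb 12, 14 and 26, against 209, 145 and 117 in forelimb 11, 13 and 25. It gave 0.15 ± 0.20 (SE, interval -0.30 to 0.59, adjusted p = 0.982), again with overlap.

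Lrp5, known for its part in bone mass, had a single probe set and was not tested. Its signals were 41.8, 30.4 and 115 in hindlimb 12, 14 and 26, against 31.1, 50.6 and 109 in forelimb 11, 13 and 25. It reached the filter of 100 in hindlimb 26 and forelimb 25 only, so its level in either limb was not measured well enough for a comparison.

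Ror2, the receptor of Wnt5a whose loss shortens the limbs of mice and whose variants cause short digits in humans, gave opposite signs on its 2 probe sets. On A arrays the signal was 224, 244 and 341 in hindlimb 12, 14 and 26, against 241, 354 and 386 in forelimb 11, 13 and 25. On B arrays Ror2 had 2558, 1338 and 2481 in hindlimb 12, 14 and 26, against 1424, 2151 and 1650.5 in forelimb 11, 13 and 25. Hindlimb 12 was the lowest of all 6 samples on A arrays and the highest on B arrays. The difference was -0.25 ± 0.20 on A arrays (SE, interval -0.69 to 0.19, adjusted p = 0.965) and 0.25 ± 0.24 on B arrays (interval -0.28 to 0.77, adjusted p = 0.934), and the limbs overlapped on both. Leaving out a sample moved the A value between -0.43 (without forelimb 11, adjusted p = 0.841) and -0.13 (without forelimb 25), with -0.41 without hindlimb 26 and -0.14 without hindlimb 12. The B value moved between 0.54 (without hindlimb 14, adjusted p = 0.916) and 0.09 (without hindlimb 12), with 0.41 without forelimb 13 and 0.11 without hindlimb 26 or without forelimb 11. The direction for Ror2 is thus not settled by these probe sets. Its ligand Wnt5a had differences of -0.13 and -0.17 on A arrays and -0.07 and 0.08 on B arrays, with overlap on each and adjusted p of 0.960 to 0.978.

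The 9 genes with a tested probe set can be set side by side by the signs of their values. Of the 8 with more than 1 tested probe set, 4 (Fzd2, Fzd4, Fzd6 and Fzd8) had only negative differences and 4 (Fzd1, Fzd3, Lrp6 and Ror2) had both signs. Several of these signs turn when a sample is left out. Of the 6 genes tested on both designs, Fzd4 and Fzd8 had the same samples low on each: hindlimb 14 and 26 for Fzd4, and all hindlimb samples for Fzd8. Fzd1 repeated in part, with hindlimb 12 and forelimb 11 below the mean of the 6 samples on both designs.

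**Figure D3:**
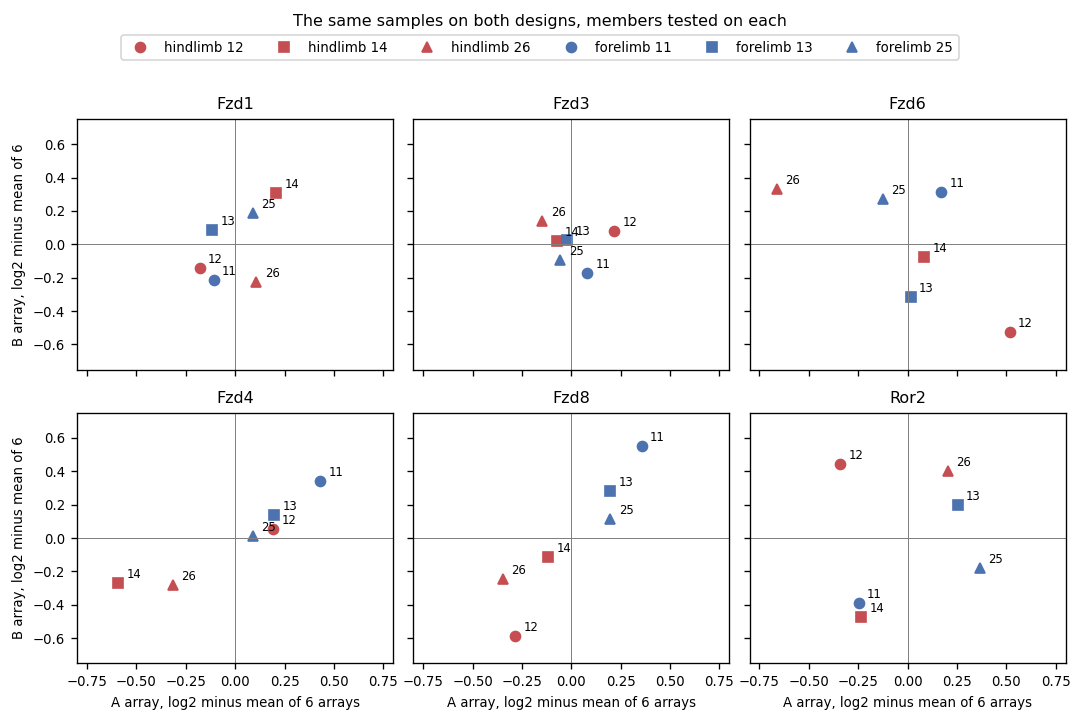
Levels of the 6 receptors tested on both designs, as log2(signal + 32) of a sample minus the mean of the 6 arrays, with the A array on the horizontal and the B array on the vertical axis; each point is a numbered sample, hindlimb red and forelimb blue, and the brightest tested probe set of a gene and design was used. Fzd8 and Fzd4 samples run from lower left to upper right, while those of Fzd6 run from upper left to lower right and those of Ror2 are scattered.

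The Frizzled and Wnt receptors outside the group, listed together with the Hedgehog transducer Smo, gave no calls either. Of the 9 genes of this list, 8 tested probe sets on A arrays and 5 on B arrays gave 0 past the threshold. At an unadjusted p under 0.05 there were 2 and 1 (5.54% of all tested on each design), all lower in hindlimb. Fzd5, the closest relative of Fzd8, had 194, 198 and 171 in hindlimb 12, 14 and 26, against 306, 279 and 321 in forelimb 11, 13 and 25 on B arrays. Its hindlimb samples lay below its forelimb samples, as those of Fzd8 did, with a difference of -0.60 ± 0.23 (SE, adjusted p = 0.894). The Fzd5 probe set on A arrays was below the filter, at 35.7 to 60.0 in hindlimb and 53.6 to 104 in forelimb.

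Fzd10, the other leading B probe set of that list, had -0.32 ± 0.20 (SE, adjusted p = 0.907). On A arrays Ryk, a Wnt receptor with an inactive kinase domain, had -0.60 ± 0.26 (SE, adjusted p = 0.877) on 1426388_s_at, -0.28 on a second probe set and 0.20 on B arrays. Fzd9 had -0.68 ± 0.31 (SE, adjusted p = 0.901), with overlapping limbs and 3 arrays above the filter. The median difference of the list was -0.28 on A arrays and 0.03 on B arrays. The A median includes Smo, with differences of 0.05 and -0.05 there.

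Further along the pathway, 0 probe sets of the 4 other lists passed the threshold on either design. Over all tested probe sets of each design, 52.2% were negative and 5.54% had an unadjusted p under 0.05. Secreted and membrane regulators of the receptors (27 genes) had 25 tested probe sets on A arrays, 19 of them negative (median -0.13; 2 higher and 5 lower at an unadjusted p under 0.05), and 14 on B arrays, 11 negative (median -0.16; 1 higher and 0 lower). Apcdd1, a membrane glycoprotein that dampens Wnt signalling, had hindlimb signals of 308 to 346 against forelimb signals of 528 to 786 on 1449070_x_at (-0.85 ± 0.16, SE, adjusted p = 0.189). The limbs did not overlap on any of the 4 Apcdd1 probe sets of the A array, while both on B arrays overlapped (-0.34 and -0.003). In the other direction stood Frzb, a secreted Frizzled-like antagonist (1.02 and 0.80 on A arrays, adjusted p = 0.183 and 0.900), and Rspo3, a secreted amplifier of Wnt signals, with 886 to 1111 in hindlimb against 490 to 751 in forelimb on B arrays (0.67 ± 0.18, SE, adjusted p = 0.775).

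The cytoplasmic and nuclear transducers (24 genes) had a median of -0.05 over 36 tested probe sets on A arrays and -0.0002 over 19 on B arrays. Lef1, a nuclear partner of beta-catenin, had -0.62 ± 0.21 (SE, adjusted p = 0.675) without overlap on a dim A probe set and 0.001 on a bright B probe set. Apc2, a relative of the beta-catenin destruction factor Apc, had 0.47 (adjusted p = 0.929) on A arrays. On B arrays Bcl9, a cofactor of beta-catenin, had 0.39 (adjusted p = 0.894; -0.21 on A arrays), and Btrc, the F-box protein that marks beta-catenin for breakdown, had -0.57 (adjusted p = 0.894) on 1 probe set and -0.14 and 0.24 on others.

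Planar polarity genes (15 genes), which act with Fzd3 and Fzd6, had a median of -0.07 over 10 tested probe sets on A arrays and -0.10 over 17 on B arrays. Celsr1, a cadherin of the polarity complex, had -0.29 (adjusted p = 0.940) and Prickle1 had -0.23 (adjusted p = 0.966) on A arrays. Both leading B probe sets belonged to Daam2, a formin that binds Dishevelled, and they went opposite ways without overlap (-0.34 on a bright and 0.77 on a dim probe set, adjusted p = 0.894 and 0.904). Wnt ligands (19 genes) had 10 tested probe sets on A arrays, all negative (median -0.17), where 52.2% of all tested were negative. On B arrays 5 of 8 were negative (median -0.06), and neither design had any at an unadjusted p under 0.05. The leading ones were Wnt5b (-0.36) and Wnt11 (-0.23) on A arrays, and Wnt9b (-1.06) and Wnt4 (-0.45) on B arrays, with adjusted p of 0.904 to 0.950. Of the 23 ligand probe sets on A arrays 13 were below the filter.

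**Figure D4:**
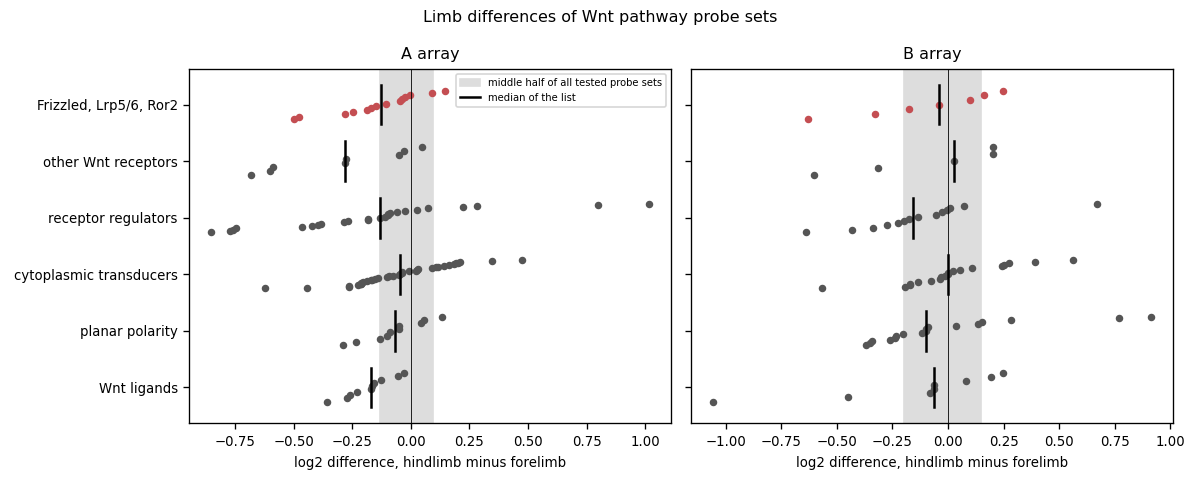
Limb differences (log2 hindlimb minus forelimb, horizontal axis) of the tested probe sets of the receptors (red) and of 5 other Wnt pathway lists (dark grey), A array left and B array right; points are probe sets, black bars list medians, and the shaded band the middle 50% of all tested probe sets. On A arrays most receptor points lie left of 0, down to -0.50 for Fzd8, and on B arrays they lie on both sides, from -0.63 for Fzd8 to 0.25 for Ror2.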

How the data were processed

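Autopod RNA was measured on 2 Affymetrix designs, MOE430 A and MOE430 B. Per the labels, the deposited values are MAS5.0 signal intensities; the A array of forelimb 11 carries no such note. They were scaled by the authors, as the 2% trimmed mean was 350.1 on each A array and 70.0 on each B array. Detection calls and scanner settings were not stated.

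Probe sets were named by the platform annotation, with symbols updated by gene identifier through a RefSeq gene table (GRCm38.p6, names only). Arrays were scaled to a trimmed mean of 500 and taken as log2(signal + 32). Limb differences were fitted for each design separately in limma 3.58.1 (R 4.3.3; lmFit, then eBayes with a mean trend), with two-sided p-values adjusted by Benjamini-Hochberg over all tested probe sets of that design; 64 control probe sets per design were left out. The fit was tested on simulated data. The median standard error was 0.16 (A) and 0.23 (B), limited by the number of arrays. Figures used matplotlib 3.10.9.

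The members, the lists and the rule for named genes (every member probe set, and per list and design the 2 probe sets of smallest p) were chosen with earlier results of these data known. Each fit was repeated without every sample in turn, with adjustment over both designs and with consecutive sample numbers as a block. It was also repeated with array weights, without the trend, with the filter raised to 200 or dropped, and with 1 or 100 as pseudocount. Further repeats used quantile normalized values or the values as deposited, which the authors had already scaled. With the deposited values the main pseudocount was kept. It weighed more against their lower signals, above all on B arrays, so this repeat does not test the scaling alone. Promoter sequences came from RefSeq (GRCm38.p6).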

Additional observations from a re-analysis of the deposited data

How the results depend on the processing

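No receptor probe set passed the threshold under any alternative: the counts stayed at 0 on both arrays. Over all probe sets the count past the threshold was 5 on A arrays, with 1 (no filter) to 14 (array weights) in other settings and 8 under the block, and 2 on B arrays, with 0 (no trend) to 4 (under the block or without hindlimb 12). The lowest adjusted p was 0.306, for Fzd4 on the A array without hindlimb 12. Of the 21 tested receptor probe sets 13 kept their direction in every setting run: those of Fzd8 (-0.57 to -0.41 on the A array and -0.73 to -0.42 on the B array), Fzd4 (-0.69 to -0.30 and -0.44 to -0.24), Fzd2 (-0.34 to -0.06, -0.30 to -0.27 and -0.33 to -0.06), Fzd7 (-0.24 to -0.09), both of Ror2 with their opposite signs (-0.43 to -0.13 and 0.09 to 0.54), Fzd1 on the A array (0.009 to 0.20), and Fzd3 1421157_at (-0.20 to -0.04) and 1434788_at (0.07 to 0.21). With a replicate block of consecutive sample numbers, a pairing that no label states, the limma adjusted p was 0.471 and 0.776 for Fzd8 and 0.467 and 0.694 for Fzd4. With the filter at 200, probe sets dimmer than that have no value. Changing the filter, the trend, the adjustment or the block left each difference unchanged, so no sign could turn in those settings. The sign turned in at least 1 setting for the other 8, whose differences lay between -0.18 and 0.15, and the cause was not tested. Quantile normalization gave 0.041 and 0.020 for Fzd3 (1449730_s_at and 1450135_at) and 0.014 for Fzd6 on the A array, and array weights gave 0.0026 for the brighter Lrp6 probe set. With a sample left out the ranges were -0.20 to 0.064 for Fzd1 and -0.39 to 0.041 for Fzd6 on the B array, -0.31 to 0.28 for Fzd6 on the A array, -0.11 to 0.070, -0.066 to 0.010 and -0.092 to 0.24 for Fzd3 (1449730_s_at, 1450135_at and 1438101_at), and -0.14 to 0.028 and -0.012 to 0.34 for Lrp6. The dim probe sets of Lrp5, Fzd3, Fzd4, Fzd6 and Fzd7 lie too near the background of the array to bear a comparison, and 3 samples per limb limit the rest.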

Other observations

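Lrp5, not tested and near the background of the array, reached the filter of 100 in 1 sample of each limb, with signals of 115 in hindlimb 26 and 109 in forelimb 25, while hindlimb 12 and 14 had 41.8 and 30.4 and forelimb 11 and 13 had 31.1 and 50.6.

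Fzd6 had hindlimb signals that spread 2.55-fold on the A array, from 139 in hindlimb 26 to 355 in hindlimb 12, and 1.88-fold on the B array in the opposite order, from 398 in hindlimb 12 to 747 in hindlimb 26. The forelimb samples spread 1.26-fold and 1.58-fold.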
